A study of Anopheles merus and Anopheles coluzzii with 36 samples.

Results

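The 9 genes described here make up a list of complement-like thioester proteins and their leucine-rich partners LRIM1 and APL1. They were taken by identifier, and all 9 were found among the 10905 genes of the deposited table. The list was chosen with earlier results of these data known. Its counts are therefore set beside the shares of all genes as a description only. They are AGAP010812, AGAP010815, AGAP010816, AGAP008364, AGAP008654, AGAP006348, AGAP007033, AGAP007035 and AGAP007036. The table holds identifiers without gene names, and the sources used here do not say which identifier belongs to which protein, so each gene is called by its identifier and no role is given to a single one. The libraries came from larvae of Anopheles merus, a euryhaline mosquito whose larvae tolerate a wide range of salt, and of Anopheles coluzzii, a stenohaline freshwater sibling species. All larvae were raised in fresh water to 18 h after hatching and were then kept for 6 h at 0, 10, 20, 30, 40 or 50% of the salinity of seawater. The larvae at 0% spent the same 6 h in fresh water and served as controls. Each library was made from poly(A) RNA of 35 to 50 pooled whole larvae. With 3 libraries for every species at every salinity there were 12 groups and 36 libraries. Separate cultures are not mentioned in the labels, and the spread that p-values measure is therefore that between pools, which may be technical.

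Thioester proteins are secreted relatives of the vertebrate complement factor C3. In Anopheles gambiae, a close relative of both species, a thioester protein of the blood binds to bacteria and malaria parasites and marks them for killing. LRIM1 and APL1 form a disulphide-linked pair of leucine-rich proteins that holds the cleaved thioester protein in solution until it is used, and in adults these proteins are made largely by blood cells and the fat body. The comparisons ask how genes of this system stand in larvae of a salt-tolerant and a freshwater species when salt is added.

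Levels are CPM values (reads of a gene scaled to the depth of its library) as the authors scaled them. Differences are given as log2 differences of CPM + 0.5 from limma, with standard errors (SE), and a gene is said to have risen or fallen, or to be higher or lower, where its p-value adjusted over all 10905 genes was under 0.05. The depth of the An. merus libraries was 9174563 to 24092192 reads over all genes, and that of the An. coluzzii libraries 15369828 to 24835904. Reads were ample for 7 of the genes. AGAP007035 had 15 reads in all over the 18 An. merus libraries, none in 9 of them, against 998 in An. coluzzii, and AGAP007036 had 174 against 973. A count of 0 allows up to 3 reads, or 0.114 to 0.348 CPM depending on the library, and that limit covers counting error only. The pools were of whole animals, so fewer cells expressing a gene and less RNA per cell cannot be told apart.

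**Figure D1:**
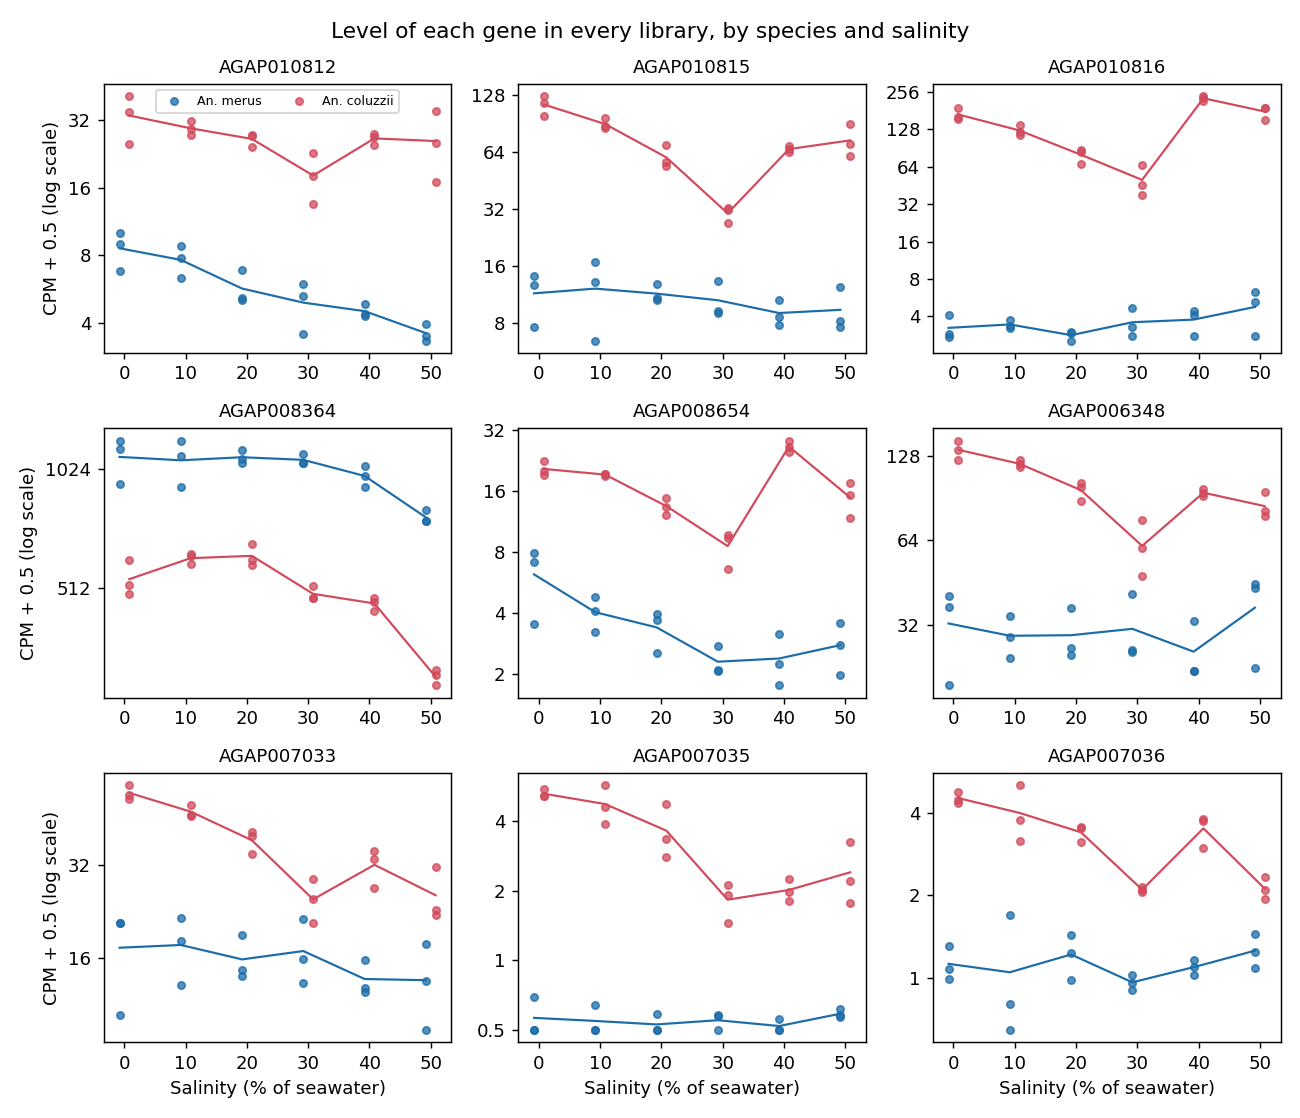
CPM + 0.5 of each of the 9 genes (vertical axis, log scale) against salinity in % of seawater, with 1 point per library, 3 libraries per group, and lines through the group means; An. merus is blue and An. coluzzii red. In An. coluzzii the means of all 9 genes lie lower at 30% than at 0%, and 8 of the 9 genes pass the test. AGAP008364 is the one gene whose An. merus points lie above those of An. coluzzii.

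Some libraries stood apart from their group for many of the 9 genes at once. In An. merus at 0%, library B was the lowest of 3 for 8 of the 9 genes, against 36.3% of all genes, and the median deviation of the 9 from their group mean was -0.32 on the log2 scale, against -0.03 for all genes. In An. coluzzii at 30%, library A was the lowest for 8 of the 9, against 26.4% of all genes, with a median deviation of -0.32, against 0.01 for all genes. In An. merus at 10%, library C was the highest for all 9, against 42.5% of all genes, and library B the lowest for 7, against 37.5%. An. merus library C was above its group at each of the 6 salinities, with median deviations of 0.15 to 0.27. What these pools had in common was not tested, and results that rest on them are given with and without them.

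**Figure D2:**
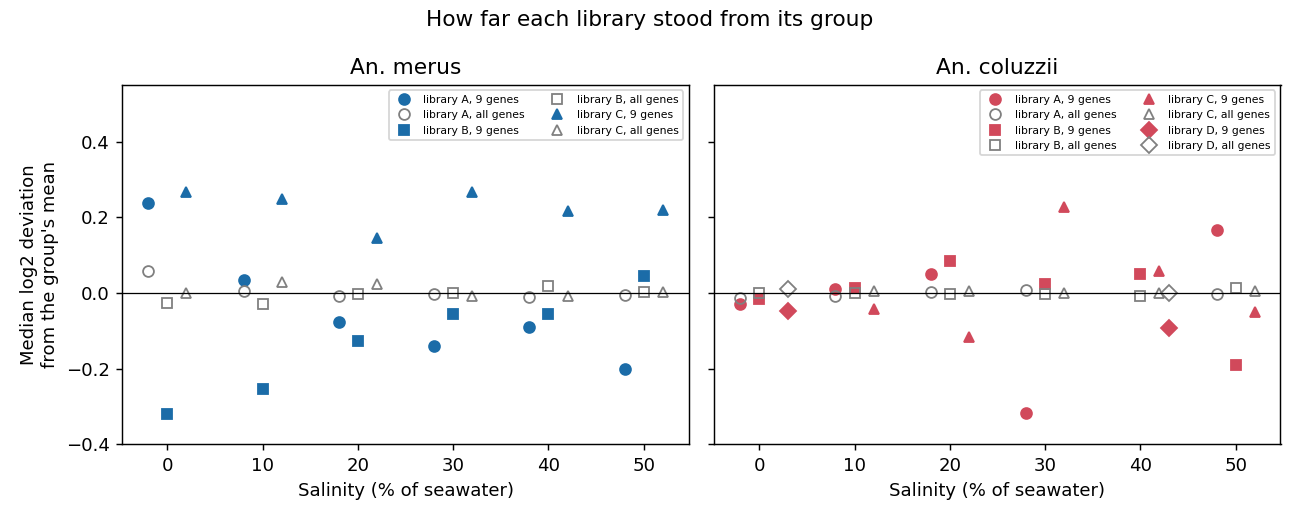
Median log2 deviation of each library from the mean of its group (vertical axis) against salinity in % of seawater, for the 9 genes (filled symbols) and all 10905 genes (open symbols), with symbol shape for the library letter; An. merus is on the left and An. coluzzii on the right. Deviations of the 9 genes reach -0.32 in An. merus at 0% B and in An. coluzzii at 30% A, while the medians of all genes lie between -0.03 and 0.06.

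In An. coluzzii the genes fell together at intermediate salinity. At 30%, 8 of the 9 were lower than at 0%, against 27.0% of all genes, and the median log2 difference of the 9 was -1.16, against -0.01 over all genes. The same number, 8, was called in each of 6 fits that left out 1 library of these groups, library A at 30% included, and also by edgeR and by DESeq2. The exception was AGAP008364, with 484, 519 and 484 CPM at 30% against 496, 603 and 521 CPM at 0% (log2 difference -0.12 ± 0.09 SE, limma adjusted p = 0.29), and with library totals in place of the authors' scaling it too was called lower (-0.29). That scaling moved the median of all genes by -0.17 in this comparison.

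Of the genes that fell at 30%, AGAP010815 had the largest log2 difference. It measured 26.6, 31.8 and 31.1 CPM at 30%, against 126, 115 and 98.8 CPM at 0%, so every library at 30% lay far under every library at 0%. The log2 difference was -1.90 ± 0.24 (SE, limma adjusted p = 3.2e-07), or 3.74-fold. Its fall was graded up to that point, with group means of 113 ± 13.7, 89.2 ± 5.80, 59.4 ± 8.21 and 29.8 ± 2.80 CPM at 0, 10, 20 and 30% (SD, n = 3 each).

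AGAP010816 followed the same course up to 30%. It measured 37.6, 45.3 and 66.0 CPM at 30%, against 189, 154 and 160.3 CPM at 0%, a log2 difference of -1.78 ± 0.23 (SE, limma adjusted p = 3.7e-07). The groups did not overlap, although the 3 pools at 30% were spread widely, with library C the highest. AGAP007035 measured 0.950, 1.42 and 1.62 CPM at 30% against 4.65, 4.61 and 5.01 CPM at 0% (log2 difference -1.54 ± 0.20 SE, limma adjusted p = 4.4e-07).

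The other 5 genes that fell at 30% did so by 0.89 to 1.28 on the log2 scale. AGAP008654 measured 6.13, 8.93 and 9.21 CPM at 30% against 19.6, 18.7 and 22.2 CPM at 0% (log2 difference -1.28 ± 0.25 SE, limma adjusted p = 1.0e-04). AGAP006348 measured 47.3, 59.7 and 75.1 CPM against 145, 134 and 123 CPM (log2 difference -1.16 ± 0.24 SE, limma adjusted p = 0.00025), and AGAP007033 measured 20.2, 24.3 and 28.2 CPM against 51.5, 53.3 and 57.1 CPM (log2 difference -1.15 ± 0.23 SE, limma adjusted p = 0.00015). Library A was the lowest at 30% in each of these genes, and no library at 30% reached the level of a library at 0%. AGAP007036, by contrast, had nearly equal values at 30%, 1.64, 1.60 and 1.56 CPM, against 4.25, 3.96 and 3.84 CPM at 0% (log2 difference -1.10 ± 0.22 SE, limma adjusted p = 0.00014). AGAP010812 had the smallest fall, with 13.0, 17.5 and 22.4 CPM at 30% against 24.5, 34.2 and 40.7 CPM at 0% (log2 difference -0.89 ± 0.22 SE, limma adjusted p = 0.0013), and its highest library at 30% came close to its lowest at 0%.

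**Figure D3:**
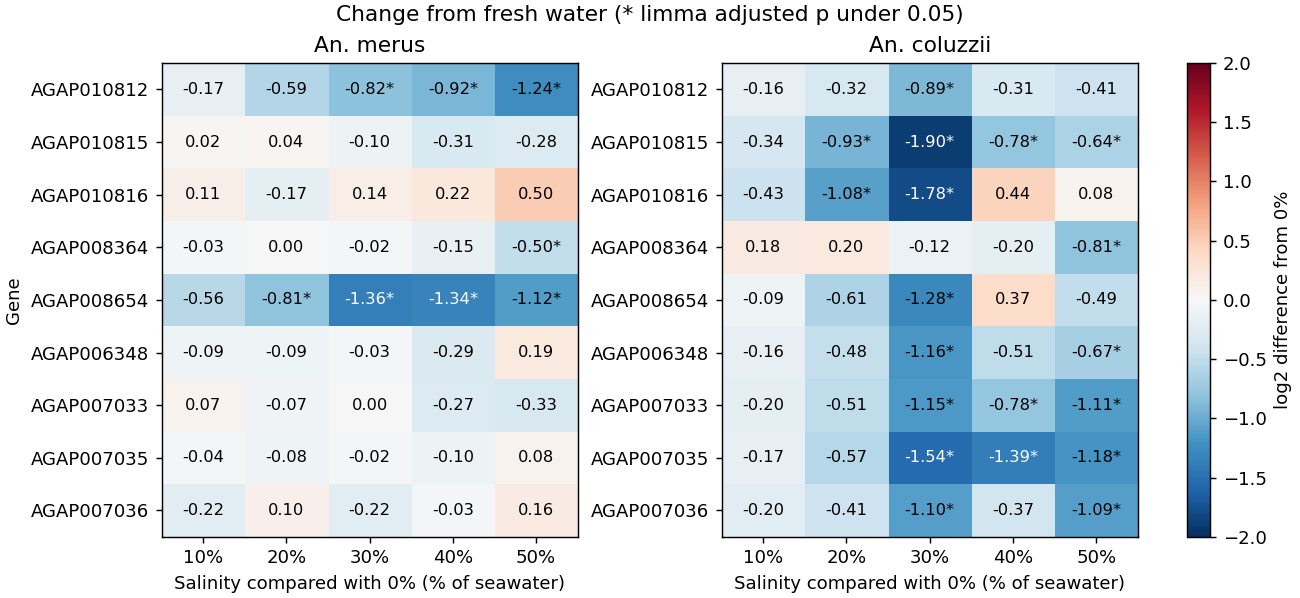
Log2 difference of CPM + 0.5 at 10 to 50% of seawater against 0% (columns) for the 9 genes (rows), coloured from blue for lower to red for higher, in An. merus (left) and An. coluzzii (right); an asterisk marks a limma adjusted p under 0.05. The column for 30% in An. coluzzii holds 8 asterisks and reaches -1.90, while An. merus has 2 in the same column.

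The first falls to pass the test came at 20%. At 10%, 0 of the 9 genes were called in An. coluzzii by limma, edgeR or DESeq2, and 0 had an unadjusted limma p under 0.05, where 0.0550% of all genes were called in either direction. Of the 9 log2 differences at 10%, 8 were below 0, with a median of -0.17, against 0 over all genes. All 9 share the same 0% libraries and so are not separate evidence. The shares of all genes below 0 or without overlap were not computed. AGAP010815 measured 87.3, 95.8 and 84.7 CPM and AGAP010816 measured 115, 138 and 121 CPM at 10%, in both genes without overlap with the 0% libraries. At 20%, 2 of the 9 had fallen, against 7.83% of all genes. AGAP010815 measured 53.4, 68.7 and 55.9 CPM (log2 difference -0.93 ± 0.24 SE, limma adjusted p = 0.010) and AGAP010816 measured 87.6, 66.8 and 84.0 CPM (log2 difference -1.08 ± 0.23 SE, limma adjusted p = 0.0023). Both lay under all 0% libraries. AGAP010815 lost its call at 20% without library A at 0% or library A at 20%. At this salinity too 8 of the 9 log2 differences were below 0, with a median of -0.51, against -0.005 over all genes. The count of genes lower rose to 4 with a pseudocount of 2 and to 5 with the species fitted alone.

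At 40% part of the list stood higher again. Set directly against 30%, 6 of the 9 genes were higher at 40%, where 18.9% of all genes were higher, a comparison added after the data were seen. With library totals, a scaling that moved the median of all genes by -0.13 here, 4 were higher. AGAP010816 measured 229, 215 and 237 CPM at 40% against 37.6, 45.3 and 66.0 CPM at 30%, a log2 difference of 2.22 ± 0.23 (SE, limma adjusted p = 1.2e-08). AGAP008654 measured 24.4, 28.0 and 26.0 CPM at 40% (log2 difference 1.65 ± 0.25 SE, limma adjusted p = 5.6e-06). In both genes the 40% libraries all lay above the 0% libraries too, but the differences from 0%, 0.44 ± 0.23 and 0.37 ± 0.25 (SE), had limma adjusted p-values of 0.095 and 0.19. With the species fitted alone both were called higher at 40% than at 0%.

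Of the other 4 that rose between 30 and 40%, only AGAP010815 was called lower at 40% than at 0%. The log2 differences from 0% were -0.51 for AGAP006348, -0.37 for AGAP007036 and -0.31 for AGAP010812 (limma adjusted p = 0.069, 0.14 and 0.22). AGAP010815 measured 65.6, 63.1 and 68.4 CPM at 40%, a log2 difference of 1.13 ± 0.24 from 30% (SE, limma adjusted p = 0.00053) and of -0.78 ± 0.24 from 0% (SE, limma adjusted p = 0.0068). The rise was 0.73 ± 0.22 for AGAP007036 (SE, limma adjusted p = 0.0092), 0.65 ± 0.24 for AGAP006348 (SE, limma adjusted p = 0.033) and 0.58 ± 0.22 for AGAP010812 (SE, limma adjusted p = 0.036). For AGAP006348 and AGAP010812 these rises were called in 1 of 6 fits that left out a library each, that without library C at 30%, and over these fits the count ran from 4 to 6 genes. No rise between 30 and 40% was called for AGAP007033, AGAP007035 or AGAP008364. AGAP007035 measured 1.31, 1.48 and 1.76 CPM at 40%, overlapping its values at 30%.

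Against 0%, 3 of the 9 genes were lower at 40%, a share close to the 35.0% of all genes. They were AGAP010815, AGAP007033 (log2 difference -0.78 ± 0.23 SE, limma adjusted p = 0.0044) and AGAP007035 (log2 difference -1.39 ± 0.20 SE, limma adjusted p = 8.7e-07). This count depended on the processing more than that at 30%, with 7 lower with library totals, a scaling that moved the median of all genes by -0.29, and 6 lower and 2 higher with the species fitted alone.

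At 50% in An. coluzzii, 6 of the 9 genes were lower than at 0%, against 36.3% of all genes, with a median log2 difference of -0.67 over the 9, against -0.06 over all genes. AGAP007033 measured 31.0, 21.6 and 22.4 CPM (log2 difference -1.11 ± 0.23 SE, limma adjusted p = 0.00012), AGAP007036 measured 1.83, 1.59 and 1.45 CPM (log2 difference -1.09 ± 0.22 SE, limma adjusted p = 8.5e-05), and AGAP007035 measured 1.70, 1.27 and 2.75 CPM (log2 difference -1.18 ± 0.20 SE, limma adjusted p = 1.0e-05). These 3 genes were without overlap between 50% and 0%. The same held for AGAP006348, AGAP010815, AGAP008364 and AGAP008654, the last of which was not called. The share of all genes without overlap was not computed. AGAP006348 and AGAP010815 had fallen by 0.67 and 0.64 on the log2 scale (limma adjusted p = 0.017 and 0.022). The call of AGAP006348 was lost without library A at 0% or B at 50%, and that of AGAP010815 without A or B at 0% or without B or C at 50%. AGAP010816 measured 190.2, 152 and 190.7 CPM at 50% against 189, 154 and 160.3 CPM at 0%, so its groups overlapped, and its log2 difference was 0.08 ± 0.23 (SE, limma adjusted p = 0.78).

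AGAP008364 took another course from the other 8 genes in An. coluzzii. Its group means were 539.9 ± 56.4, 609.6 ± 18.5, 618 ± 39.7, 496 ± 20.2, 469 ± 18.6 and 307 ± 13.4 CPM from 0 to 50% (SD, n = 3 each). It measured 292, 309.5 and 318 CPM at 50% against 496, 603 and 521 CPM at 0%, with no overlap (log2 difference -0.81 ± 0.09 SE, limma adjusted p = 1.2e-08). Between 40 and 50%, a comparison also added after the data were seen, 3 of the 9 genes fell, against 21.8% of all genes, and 0 rose, against 21.6%. AGAP008364 was one of them (log2 difference -0.61 ± 0.09 SE, limma adjusted p = 4.8e-06), with AGAP008654 (-0.85 ± 0.25 SE, limma adjusted p = 0.0066) and AGAP007036 (-0.72 ± 0.22 SE, limma adjusted p = 0.0092). The call of AGAP008654 was lost without library C at 50%.

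In An. merus fewer of the genes moved with salinity, and those called by limma with all libraries fell. Under some other settings AGAP010816 was called higher at 50%, as given below. AGAP010812, AGAP008654 and, at 50%, AGAP008364 were the genes called. At 10%, 0 of the 9 were called by limma, edgeR or DESeq2, and 1 had an unadjusted limma p under 0.05, where 0.798% of all genes were called in either direction. The count of genes lower than at 0% was 1 at 20%, against 7.05% of all genes, 2 at 30%, against 10.7%, 2 at 40%, against 21.5%, and 3 at 50%, against 37.7%. At 40 and 50% these shares are near those of all genes. The median log2 difference of the 9 genes at 50% was -0.28, against -0.06 over all genes.

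AGAP010812 fell step by step in An. merus, with group means of 8.10 ± 1.64, 7.13 ± 1.23, 5.18 ± 1.01, 4.42 ± 1.24, 4.01 ± 0.279 and 3.09 ± 0.320 CPM from 0 to 50% (SD, n = 3 each). At 50% it measured 2.83, 3.45 and 3.01 CPM, against 9.51, 6.29 and 8.49 CPM at 0%. The highest library at 50% lay well under the lowest at 0%, and the log2 difference was -1.24 ± 0.22 (SE, limma adjusted p = 1.4e-05). The falls at 30 and 40% were 0.82 and 0.92 on the log2 scale (limma adjusted p = 0.0095 and 0.0016), and the first was lost without library A at 0% or A at 30%.

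AGAP008654 was lower from 20% on, with group means of 1.81 ± 0.387, 1.89 ± 0.706 and 2.29 ± 0.806 CPM at 30, 40 and 50% (SD, n = 3 each). It measured 7.43, 3.05 and 6.70 CPM at 0%, where library B stood far under the other two. At 30% it measured 1.57, 1.59 and 2.25 CPM (log2 difference -1.36 ± 0.25 SE, limma adjusted p = 0.00032), all under the lowest 0% library. The log2 differences were -0.81 ± 0.25 at 20% (SE, limma adjusted p = 0.034), -1.34 ± 0.25 at 40% (SE, limma adjusted p = 0.00011) and -1.12 ± 0.25 at 50% (SE, limma adjusted p = 0.00024). At 50% it measured 1.47, 2.30 and 3.08 CPM, and its highest library passed the lowest at 0%. The call at 20% was lost without library A or C at 0%, without library B at 20%, and when the species was fitted alone.

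AGAP008364 was called in An. merus at 50% only. It measured 754, 755 and 807 CPM at 50%, against 1149.5, 934 and 1202 CPM at 0%, with no overlap (log2 difference -0.50 ± 0.09 SE, limma adjusted p = 2.4e-05). At 40% its log2 difference was -0.15 ± 0.09 (SE, limma adjusted p = 0.19). At the authors' scaling it is the one gene of the 9 that fell at 50% in both species, and it had fallen at 30% in neither.

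The remaining 6 genes were not called in An. merus at any salinity. AGAP010815 measured 7.66, 7.17 and 11.9 CPM at 50% against 12.2, 7.17 and 13.6 CPM at 0%, and its log2 differences lay between -0.31 and 0.04 over the 5 salinities. AGAP006348 measured 22.0, 44.2 and 42.9 CPM at 50% against 40.0, 19.0 and 36.6 CPM at 0%, and AGAP007033 measured 8.89, 13.1 and 17.3 CPM against 20.2, 9.97 and 20.2 CPM. In both genes the pools of each group lay far apart, and the groups overlapped. AGAP010816 measured 2.30, 5.75 and 4.75 CPM at 50% against 3.60, 2.24 and 2.36 CPM at 0% (log2 difference 0.50 ± 0.23 SE, limma adjusted p = 0.053), and it was called higher with a pseudocount of 0.1, with quantile normalization, by edgeR and by DESeq2.

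Library B at 0% decided some of these counts. Without it, 5 of the 9 genes were lower at 40%, the added ones being AGAP006348, AGAP007033 and AGAP008364 with log2 differences of -0.62, -0.60 and -0.26 (limma adjusted p = 0.037, 0.030 and 0.024). Without it, AGAP008654 was called at 10% (-0.92, limma adjusted p = 0.047) and AGAP010812 at 20% (-0.75, limma adjusted p = 0.030), in addition to AGAP008654. At 50% AGAP007033 joined the 3 others that were lower, with -0.66 (limma adjusted p = 0.011), where it had -0.33 (limma adjusted p = 0.21) with that library. At 20% the count was 0 without library A or C at 0% or B at 20%, and 2 without library C at 20%. At 30% it was 1 without library A at 0% or A at 30%. Without library A at 0% or A at 50%, 3 genes were lower at 50% and 1 was higher.

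Whether the species responded differently was tested as the difference in response, the log2 change from 0% in An. merus minus that in An. coluzzii. A positive value means that the response was higher, or the fall smaller, in An. merus. Within a species all salinities share the same 0% libraries, so the tests at 30, 40 and 50% are not independent of each other. With library totals as the scaling the median difference of all genes moved by 0.19, 0.32 and 0.16 at 30, 40 and 50%.

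The An. merus response at 30% was higher for 6 of the 9 genes, against 9.39% of all genes. The 6 include AGAP007035 and AGAP007036, which reached 1 CPM in 0 and 1 of the 18 An. merus libraries. So near the floor, a fall in An. merus had little room to show. With only genes of a mean of at least 5 CPM fitted, 4 of 7 were higher. The difference was 1.92 ± 0.33 for AGAP010816 (SE, limma adjusted p = 0.00013) and 1.81 ± 0.35 for AGAP010815 (SE, limma adjusted p = 0.00050). These 2 genes held their calls in all 12 fits that left out a library, and by edgeR and DESeq2. Their changes at 30% were 0.14 and -0.10 in An. merus, against -1.78 and -1.90 in An. coluzzii. AGAP007033 and AGAP006348 had differences of 1.15 ± 0.33 and 1.13 ± 0.34 (SE, limma adjusted p = 0.014 and 0.022), called also by edgeR and DESeq2, but both lost the call without An. merus 0% B (0.83 and 0.80) or without An. merus 30% C (0.97 and 0.90), and AGAP006348 also without An. coluzzii 30% A.

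AGAP007035 and AGAP007036 were called at 30% as well, with differences of 1.52 ± 0.28 and 0.89 ± 0.31 (SE, limma adjusted p = 0.00039 and 0.044). For AGAP007035 the An. merus side rests on 3 reads at 30% and 4 at 0%, and neither edgeR (adjusted p = 0.61) nor DESeq2 (adjusted p = 0.56) called it, so a difference in response was not detectable at this depth. The call of AGAP007036 held in 1 of 12 fits that left out a library and was lost with edgeR and DESeq2. Without An. merus 0% B or An. merus 30% C the count of 6 became 3. AGAP010812 and AGAP008654, the genes that fell at 30% in both species, had differences of 0.07 (95% interval -0.56 to 0.71) and -0.08 (95% interval -0.80 to 0.64). For AGAP008654 the difference was -0.35 with edgeR (adjusted p = 0.56) and -0.33 with DESeq2 (adjusted p = 0.57).

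At 40% the species differed in 2 of the 9 genes, 1 in each direction, next to 44.2% of all genes in either direction. AGAP008654 was lower in the An. merus response, with a difference of -1.71 ± 0.35 (SE, limma adjusted p = 0.00030; called by edgeR and DESeq2 too). Its An. merus libraries at 40% held 1.26, 1.76 and 2.66 CPM, against 24.4, 28.0 and 26.0 CPM in An. coluzzii. The other gene was AGAP007035, which is again at the floor in An. merus and whose difference of 1.29 ± 0.28 (SE, limma adjusted p = 0.00061) became -0.14 with edgeR and -0.34 with DESeq2. The count was 1 with edgeR and with DESeq2, and 4 with library totals.

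The An. merus response at 50% was higher for 5 genes, against 25.6% of all genes, and lower for 1, against 29.3%. The 5 include AGAP007035 and AGAP007036, for which a fall in An. merus had little room to show. With only genes of a mean of at least 5 CPM fitted, 3 of 7 were higher and 1 was lower. AGAP007036 had a difference of 1.25 ± 0.31 (SE, limma adjusted p = 0.0013; edgeR adjusted p = 0.0060). AGAP006348 and AGAP007033 had 0.86 ± 0.34 and 0.79 ± 0.33 (SE, limma adjusted p = 0.035 and 0.043), the second not called by edgeR (adjusted p = 0.055), and AGAP008364 had 0.31 ± 0.13 (SE, limma adjusted p = 0.041), its fall being smaller in An. merus. AGAP010812 had -0.83 ± 0.31 (SE, limma adjusted p = 0.025). It fell in An. merus, while its change in An. coluzzii was not called (-0.41 ± 0.22 SE, limma adjusted p = 0.098). The call of its difference was kept by edgeR and DESeq2. It was lost with a pseudocount of 2, with library totals and with quantile normalization, where 0 genes were lower. AGAP007035 had 1.25 ± 0.28 (SE, limma adjusted p = 0.00052) but was not called by edgeR or DESeq2. AGAP008654 had -0.63 ± 0.35 (SE, limma adjusted p = 0.13) and was not called by edgeR (-0.84, adjusted p = 0.054). DESeq2 called it lower (-0.81, adjusted p = 0.042). Of the 12 fits that left out a library, AGAP006348 and AGAP007033 were called in 5 each, AGAP008364 in 7 and AGAP010812 in 8. The count was 3 without An. coluzzii 0% B, without An. coluzzii 50% B and without An. merus 50% C.

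Of the 9 genes, 7 were open to a test of the species, and these 7 differed in fresh water and at every other salinity. All genes of the deposited table had at least 1 CPM, before TMM scaling, in at least 3 libraries. AGAP007035 and AGAP007036 met this only through their An. coluzzii libraries, and a lower level in An. merus was thereby fixed for them, so their species differences are given as a description only. Of the other 7 genes, 6 were lower in An. merus at 0%, where 21.5% of all genes were lower, and AGAP008364 was higher, where 22.0% of all genes were. The same 6 were lower at each other salinity, where the share of all genes lower in An. merus was 18.0% at 10%, 21.9% at 20%, 28.8% at 30%, 34.0% at 40% and 37.7% at 50%. Over all salinities, 5 of these 7 genes had no overlap between the 18 An. merus and the 18 An. coluzzii libraries. The share of all genes without such overlap was not computed, so this count is a description only. The exceptions were AGAP008654 and AGAP007033, whose highest An. merus libraries, 7.43 and 21.1 CPM, passed the lowest of An. coluzzii, 6.13 and 20.2 CPM. The species comparisons at 10 to 50% were added after the data were seen. How well reads of each species aligned to the reference was not measured here, and a difference in alignment and one in expression cannot be told apart. Whether similar copies of these genes shared reads was not tested either.

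AGAP010816 had the largest species difference. It measured 3.60, 2.24 and 2.36 CPM in An. merus at 0%, against 189, 154 and 160.3 CPM in An. coluzzii, a log2 difference of -5.72 ± 0.23 (SE, limma adjusted p = 2.6e-18), or 52.8-fold. The difference was smallest at 30%, at -3.80, and largest at 40%, at -5.94. Its 18 An. merus libraries spanned only 2.05 to 5.75 CPM, while those of An. coluzzii spanned 37.6 to 237 CPM.

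AGAP010815 came next among the genes with ample reads in both species. Its values were 12.2, 7.17 and 13.6 CPM in An. merus at 0%, against 126, 115 and 98.8 CPM in An. coluzzii (log2 difference -3.35 ± 0.24 SE, limma adjusted p = 3.6e-12), and the difference was -1.54 at 30%. For AGAP007035 the fitted difference at 0% was -3.24, a value that depends on the 0.5 CPM added, since the 3 An. merus libraries held 4 reads in all, against 290 in An. coluzzii. AGAP007036 had -2.01 at 0%, which depends on the 0.5 CPM in the same way, since it was -2.72 with edgeR and -2.76 with DESeq2. At 0% the other 4 genes that were lower in An. merus had log2 differences from -2.12 to -1.72.

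AGAP008364 was the exception at every salinity. It measured 1149.5, 934 and 1202 CPM in An. merus at 0%, against 496, 603 and 521 CPM in An. coluzzii, a log2 difference of 1.02 ± 0.09 (SE, limma adjusted p = 3.3e-10). The difference ranged from 0.81 at 10% to 1.33 at 50%. The smallest species difference of the list was that of AGAP007033 at 30%, -0.57 ± 0.23 (SE, limma adjusted p = 0.036), where the An. merus libraries held 12.8, 15.4 and 20.9 CPM, against 20.2, 24.3 and 28.2 CPM in An. coluzzii. That call was kept in 2 of 6 fits that left out a library and was lost with library totals (-0.45).

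**Figure D4:**
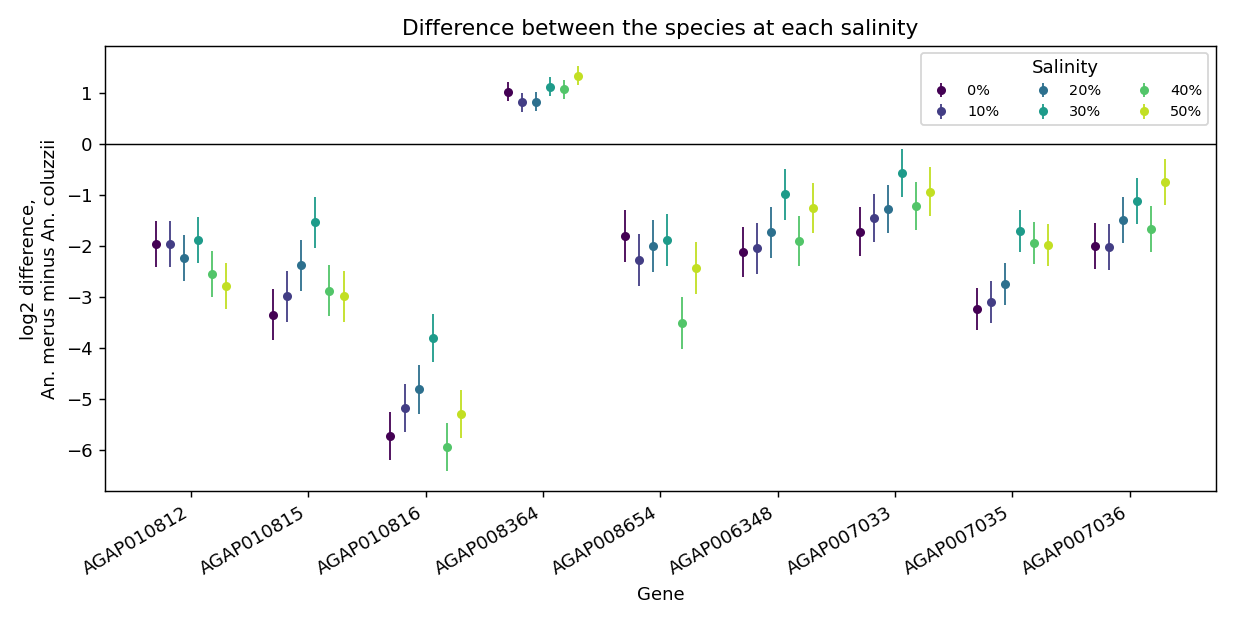
Log2 difference of CPM + 0.5, An. merus minus An. coluzzii (vertical axis), for each of the 9 genes at 6 salinities in % of seawater (colours, low to high from left to right), with bars for 95% confidence intervals. All points lie under 0 except those of AGAP008364, and AGAP010816 reaches -5.94 at 40%.

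The 9 genes did not vary as 1 block. After the mean of each species was subtracted, Pearson's r between pairs of them over the 36 libraries ran from -0.34, for AGAP010816 and AGAP008364, to 0.83, for AGAP006348 and AGAP007033. In An. coluzzii alone the highest was 0.92, for AGAP010815 and AGAP006348 over 18 libraries, and in An. merus alone it was 0.87, for AGAP010815 and AGAP007033. These values describe libraries that share salinity steps and pools, and no test was made of them.

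Among all genes with a mean of at least 5 CPM, the gene most like AGAP006348 was AGAP011791 (r = 0.85), followed by AGAP007033 of the list (r = 0.83). The gene most like AGAP010815 was AGAP009916 (r = 0.82), and the third most like it was AGAP006348 (r = 0.79). AGAP008364 was most like AGAP001615 (r = 0.92), AGAP010812 most like AGAP005237 (r = 0.85), AGAP010816 most like AGAP028028 (r = 0.75), AGAP008654 most like AGAP004618 (r = 0.82) and AGAP007033 most like AGAP009859 (r = 0.85). The sources used here annotate none of these identifiers.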

How the data were processed

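Poly(A) RNA was sequenced from 36 pools of whole larvae, and the authors deposited 1 table of expression signal per gene and library, CPM scaled by TMM factors as the name of the deposited table says. The submitters' processing notes name Trimmomatic, Bowtie2, TopHat2, HTSeq and edgeR, and none of the sources used here gives the reference genome. The columns sum to 891810 to 1215178. Of all values, 100% were whole multiples of 1 read (tolerance 0.001), which gave back the reads. The column of An. coluzzii library C at 50% carries the name of 1 of its 5 lane parts, and it is not stated if the others are included. The reference table lists 16199 An. merus genes, and 0 of them carry an identifier of the deposited table. No name, coordinate or sequence is therefore given, and further lists of unannotated identifiers were left out.

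Values were tested as log2(CPM + 0.5), a scale that understates the change of low genes, with no filter beyond that of the deposited table (every gene in it had at least 1 CPM in at least 3 libraries), in limma 3.58.1 (R 4.3.3). A single model held 12 group means over 36 libraries, moderated with a mean trend; p-values were two-sided, were adjusted by Benjamini-Hochberg for the 10905 genes of a comparison, and were called under 0.05. There were 14 planned comparisons, and 7 were added after the data were seen. Tests were unpaired. Same-lettered An. merus libraries deviated together between 10% and 0% (correlations 0.33, 0.57 and 0.11) and between 30% and 0% (0.22, 0.29 and 0.32), so the letters pair these libraries by the data. A block for the letter changed no call of the 9 genes in either comparison. That block shared each letter's effect over both species and all salinities, so it cannot show what pairing within these groups would change. None of the 36 replicate pairs agreed within sampling noise.

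Alternatives were pseudocounts of 0.1 and 2, a filter at a mean of 5 CPM, library totals, quantile normalization, a block for the replicate letter, each species alone, each library left out, and, on the reads, DESeq2 1.42.0 and the quasi-likelihood test of edgeR 4.0.16. The procedure was tested on simulated reads. All 9 genes of the list are named, and for each with a mean of at least 5 CPM the genes of highest Pearson correlation. The members and lists were chosen with earlier results of these data known. Python 3.11.15 with matplotlib 3.10.9 drew the figures.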

Additional observations from a re-analysis of the deposited data

Results flagged for a closer look

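The limma test of the difference in response called 14 cases, given here as An. merus minus An. coluzzii on the log2 scale. At 30% these were AGAP010816 (1.92), AGAP010815 (1.81), AGAP007035 (1.52), AGAP007033 (1.15), AGAP006348 (1.13) and AGAP007036 (0.89). At 40% they were AGAP008654 (-1.71) and AGAP007035 (1.29). At 50% they were AGAP007035 (1.25), AGAP007036 (1.25), AGAP006348 (0.86), AGAP007033 (0.79), AGAP008364 (0.31) and AGAP010812 (-0.83). The 3 values of AGAP007035 rest on 1 to 4 reads per group in An. merus, and none of them was called by edgeR or DESeq2. AGAP007036 was near the floor there too, reaching 1 CPM in only 1 of 18 An. merus libraries. Its call at 30% was lost with edgeR and DESeq2. Both genes met the filter of the deposited table only through An. coluzzii, so a fall in An. merus had little room to show. No outlier test was made within groups of 3 libraries.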

How the results depend on the processing

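In An. coluzzii at 30%, 8 of 9 genes were called under each alternative except library totals (9) and the filter at a mean of 5 CPM (6 of the 7 it leaves). The count in An. merus at 20% was 0 with the species fitted alone, against 1. In An. coluzzii at 20% it was 4 with a pseudocount of 2 and 5 with the species alone, against 2. In An. coluzzii at 40%, against 3, all lower, it was 5 with quantile normalization or the replicate block (all lower), 5 with a pseudocount of 2 or DESeq2 (4 lower, 1 higher), 7 with library totals (all lower) and 8 with the species alone (6 lower, 2 higher). For the difference at 40%, against 2, it was 1 with a pseudocount of 0.1, the filter, edgeR or DESeq2, and 4 with library totals. AGAP007035 changed sign in that comparison with edgeR (-0.14) and DESeq2 (-0.34). The cause of these shifts was not tested. Leaving out 1 library gave 0 to 1, 0 to 2, 1 to 2, 2 to 5 and 3 to 4 genes in An. merus from 10 to 50%, and 0 to 0, 1 to 3, 8 to 8, 3 to 4 and 4 to 7 in An. coluzzii. It gave 9 to 9 for the species at each salinity except 30% (8 to 9), 3 to 6, 2 to 2 and 3 to 6 for the difference at 30, 40 and 50%, 4 to 6 for 40 against 30% and 2 to 3 for 50 against 40% in An. coluzzii. The counts for the species include AGAP007035 and AGAP007036, whose lower level in An. merus was fixed by the filter. Same-lettered libraries correlated over 0.1 with their letter at 0% in 14 of 25 comparisons (range -0.53 to 0.57), and 9 of 25 were closest to their own letter, 8 of them in An. merus at 10 to 30%. Elsewhere than in An. merus at 10 and 30% the letters were not taken to pair the samples. Beside the 5 given above, the replicate block gave 4 genes (1 higher) against 3 in An. merus at 50% and 5 against 6 for 40 against 30% in An. coluzzii, and moved no other count. Depth limits AGAP007035 and AGAP007036 in An. merus.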
